A study of Mus musculus with 9 samples.

Results

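The genes described here are the 37 transcribed from the mouse mitochondrial genome, taken as every row of the deposited table whose symbol starts with mt- and whose chromosome is MT, out of 30128 genes in all. They are 13 mRNAs, 2 rRNAs and 22 tRNAs, and all 37 passed the filter on low values. Values were RNA-seq levels of left ventricular tissue in 9 libraries, 3 in each of 3 groups. The control group was wild type, and its labels name no virus. The group called null virus here was db/db mice, which lack a working leptin receptor and become obese and diabetic, given AAV9_null, an adeno-associated virus of a serotype that reaches the heart, named null in the labels. The group called USP28 virus was db/db mice given AAV9_USP28, in which the cTnT promoter, active in cardiomyocytes, drives USP28, a deubiquitinating enzyme. Genotype and virus differ together between control and either db/db group, so their parts cannot be told apart. Age, sex and strain were not given in the labels, nor whether the 3 libraries of a group came from separate animals, so p-values measure the spread between these libraries, which may be technical.

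Mitochondrial DNA is a small circle inside the organelle, transcribed on both strands into long precursor RNAs by the polymerase Polrmt with the help of Tfam and Tfb2m. The tRNA genes lie between the mRNA and rRNA genes, and their excision at both ends frees most mRNAs, which then receive a poly(A) tail. The mRNAs encode core subunits of respiratory complexes I, III and IV and of the ATP synthase (complex V), and the rRNAs and tRNAs serve the ribosomes that translate them. Cardiac muscle depends on oxidative phosphorylation and holds many mitochondria, so these RNAs are abundant in the ventricle.

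Depth, recovered from the values, was 35970332 to 56497662 reads per library. Summed levels of 10 cardiomyocyte markers were 31731 to 46093 scaled RPKM (reads per kilobase of gene and unit of library depth, scaled between libraries), while lymphocyte and adipocyte markers summed to at most 0.325. Usp28 itself was at 12.6, 13.3 and 13.9 scaled RPKM in control, 9.87, 7.53 and 7.8 in null-virus and 9.76, 11.3 and 11.4 in USP28-virus libraries. No library of the USP28-virus group reached the lowest of control, and its log2 difference of 0.37 from null virus did not pass (limma adjusted p = 0.189), so the groups are named by their labels throughout. Null-virus replicate 1 stood apart from the others of its group, with chi-square per degree of freedom of 117 and 144 against them, where the other pairs of a group had 19.1 to 55.2. USP28-virus replicate 1 carried atrial markers (Sln, Myl7, Myl4, Nppa) at a sum of 1423 scaled RPKM, against 78.8 to 340.5 in the other 8 libraries, and the part of this in the results was not tested. In bulk tissue, fewer cells of a type and less RNA per cell cannot be told apart.

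Reads were shared unevenly between 7 mitochondrial mRNAs and their copies in the nuclear genome, and this sets what several of the levels mean. A block on chromosome 1 (GRCm38, 24611535 to 24616197, minus strand) holds 7 pseudogenes that are copies of mitochondrial genes, and Gm13340 and Gm13341 on chromosome 2 are more diverged ones. Gm28661 matched mt-Co2 over 681 of 681 bases, Gm10925 matched mt-Atp6 over 678 of 678, Gm28437 matched mt-Co3 over 783 of 783, Gm10222 matched mt-Nd4l over 294 of 294, and Gm28439 matched 876 bases of mt-Nd4. Gm28438 differed from mt-Nd3 at 1 of 345 bases (T3C, counted from 1 at the 5′ end of mt-Nd3), and Gm29216 from mt-Co1 at 1 of 483 (A1066T). The mt-Co2 stretches below, read from GENCODE M21 transcripts of GRCm38, are shown because a read from the first could not be told from the second, whereas the third differs at the 6 of 60 bases in capitals. They lie at MT:7457-7516 (plus strand), chr1:24615062-24615121 (minus strand) and chr2:22587471-22587530 (minus strand).
mt-Co2: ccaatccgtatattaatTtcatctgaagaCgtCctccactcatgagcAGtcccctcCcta
Gm28661: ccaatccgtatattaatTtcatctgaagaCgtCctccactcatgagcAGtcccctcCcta
Gm13341: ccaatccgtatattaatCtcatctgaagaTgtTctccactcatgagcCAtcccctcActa

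The first 30 bases of mt-Nd3 (MT:9459-9488, plus strand) and of Gm28438 (chr1:24613090-24613119, minus strand) carry the sole difference of that pair, in capitals, and are shown because reads past this base match both.
mt-Nd3: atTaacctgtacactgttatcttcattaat
Gm28438: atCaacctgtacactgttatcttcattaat

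Of 50-base windows, all of mt-Co2 were also found in nuclear transcripts, and the share was 99.9% for mt-Co3, 99.5% for mt-Atp6, 98.8% for mt-Nd4l and 98.0% for mt-Nd3. It was 62.2% for mt-Nd4, 51.1% for mt-Co1, 8.19% for mt-Nd2, 7.61% for mt-Nd5 and 1.04% for mt-Rnr2. No window of mt-Nd1, mt-Nd6, mt-Cytb, mt-Atp8, mt-Rnr1 or any of the 22 tRNAs was shared with such a transcript. Sequence outside annotated nuclear transcripts was not searched. A copy of a tRNA or of mt-Atp8 between the pseudogenes of the chromosome 1 block could thus be missed. The reads did not follow the shares of windows. Of the reads under mt-Co2 and its copies together, 99.7% to 99.8% were counted under the copies. For mt-Atp6 the copy held 99.8%, and for mt-Co3 99.8% to 99.9%. The copy of mt-Nd4l, identical over its length, held only 1.58% to 2.13% of the reads of its pair, and that of mt-Nd4 held 0.357% to 0.456%. Intermediate shares were found for mt-Nd3 (40.4% to 48.1%) and mt-Co1 (17.9% to 30.2%).

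So the rows for mt-Co2, mt-Atp6 and mt-Co3 hold a small remainder of the reads that match them, and their levels leave out the part counted under the copies. The handling of reads that match more than 1 place was not given in the sources used here. With the copies' reads added, mt-Co2 stood at 38784, 61078 and 39697 scaled RPKM in control, mt-Atp6 at 45951, 45272 and 49085, and mt-Co3 at 14943, 14959.7 and 16398. These levels are of the same order as mt-Co1 at 24685, 25217 and 27865, whereas mt-Nd3 reached only 1444, 1306 and 1403 with its copy added. The plot of member and copy levels shows the 7 pairs side by side.

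**Figure D1:**
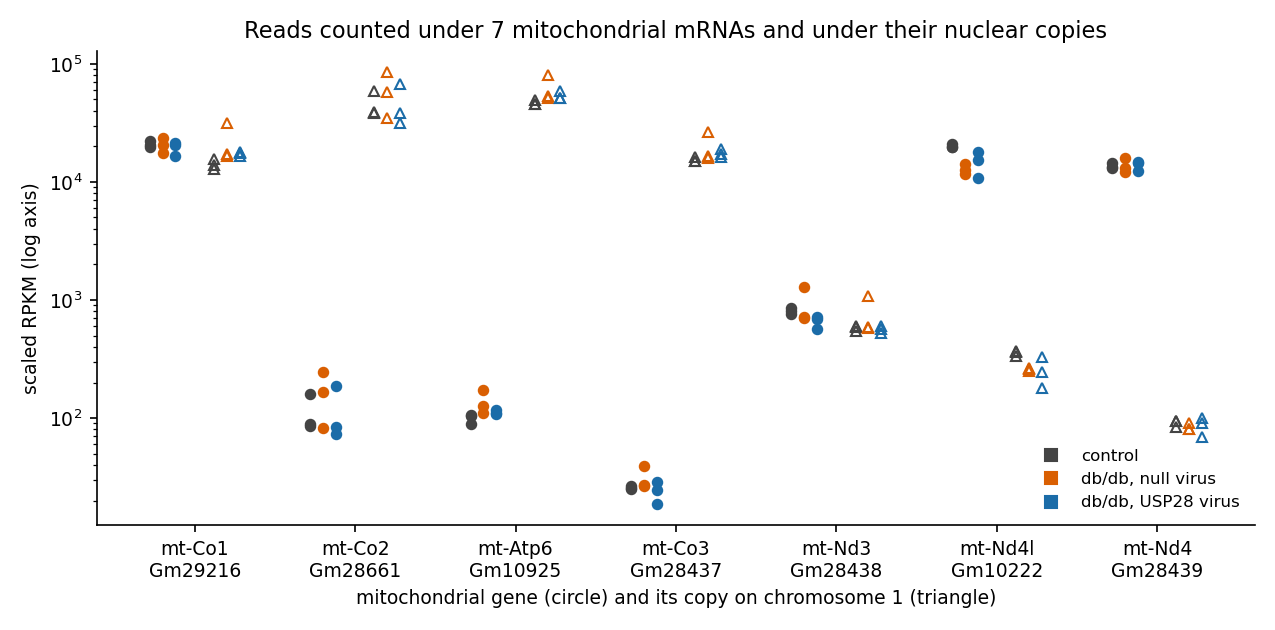
Scaled RPKM (log axis) of 7 mitochondrial mRNAs (filled circles) and of their chromosome 1 copies (open triangles) in each of the 9 libraries, coloured by group. The copies of mt-Co2, mt-Atp6 and mt-Co3 lie far above the mitochondrial rows, while the copies of mt-Nd4l and mt-Nd4 lie far below theirs.

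In db/db hearts given null virus, 8 of the 37 mitochondrial genes were lower than in control and 0 were higher (limma, adjusted p under 0.05), 7 of them tRNAs and the eighth mt-Nd4l. Over all 14104 genes tested, 22.2% passed in either direction in this comparison, 12.5% as lower and 9.71% as higher, and 21.6% of the mitochondrial genes passed. The median log2 difference was 0.10 for the 13 mRNAs, 0.13 for the 2 rRNAs and -0.60 for the 22 tRNAs, where that over all genes was -0.0052. The 3 libraries did not overlap between groups for 12 mitochondrial genes that were lower and 2 that were higher, where 22.4% and 18.7% of all genes (41.1% in either direction) had such groups. The count rests on few libraries. It was 4 without null-virus replicate 1 or 2, control replicate 1 or USP28-virus replicate 3, and 1 (mt-Tl2) without control replicate 2 or 3.

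Between USP28 virus and null virus, 0 of 37 passed in limma, and 8 had an unadjusted p under 0.05, all lower with USP28 virus. Over all genes, 2341 of 14104 had an unadjusted p under 0.05 in either direction. A fit with limma voom on the recovered reads also gave 0. Of all genes tested, 0.454% passed in this comparison, 0.298% as higher and 0.156% as lower (42 and 22 genes, or 27 and 4 when library totals replace the scaling). The median log2 difference was -0.09 for the mRNAs, -0.63 for the rRNAs and -0.31 for the tRNAs, where that over all genes was 0.01. In 6 mitochondrial genes (both rRNAs, mt-Tf, mt-Td, mt-Tg and mt-Tt) the USP28-virus libraries lay below all null-virus libraries, as in 11.1% of all genes, and in 0 they lay above, as in 12.1%. Groups did not overlap in either direction for 23.2% of all genes. Without null-virus replicate 1, mt-Td and mt-Tl1 passed as lower.

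Against control, the hearts given USP28 virus had 10 mitochondrial genes lower and 0 higher, all of them tRNAs. Of all genes tested, 11.7% passed in this comparison, 6.3% as lower and 5.35% as higher (889 and 755 genes, or 309 and 612 when library totals replace the scaling). The median log2 difference was -0.12 for the mRNAs, -0.50 for the rRNAs and -0.87 for the tRNAs. Groups did not overlap for 19 mitochondrial genes that were lower and 3 that were higher, where 23.8% and 21.6% of all genes (45.4% in either direction) had such groups. This comparison shares its control libraries with the first, so the tRNAs named in both are not independent evidence. The count was 5 without control replicate 2, control replicate 3 or USP28-virus replicate 1, and 17 without null-virus replicate 1. That library enters this comparison through the scaling, the filter and the shared estimate of the spread.

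Markers of several cell types differed between the same groups (limma, adjusted p under 0.05), and no marker was at 0 in all libraries. Over all genes tested, 9.71% rose and 12.5% fell with null virus, and 5.35% rose and 6.3% fell with USP28 virus, against control. Of 7 endothelial markers, 3 rose in each db/db group against control, with sums of 77.5 to 89.9 scaled RPKM in control, 96.7 to 124 in null-virus and 107 to 122 in USP28-virus libraries. Of 7 macrophage markers, 3 fell with null virus and 1 with USP28 virus, with sums of 29.3 to 36.5, 21.8 to 26.6 and 21.8 to 27.2. Of 8 fibroblast markers, 4 fell and 1 rose with null virus, and 3 fell and 1 rose with USP28 virus, while their sum was 188 to 216 in control, 254 to 296 in null-virus and 270.4 to 307 in USP28-virus libraries. Of 10 cardiomyocyte markers, 2 fell with null virus and 1 with USP28 virus. Of 6 smooth muscle and pericyte markers, 2 rose with USP28 virus, and their sums of 188 to 231, 195 to 249.8 and 238 to 278 overlapped between control and null virus. Of 5 erythroid markers none passed in these comparisons, with sums of 139.7 to 526, 128 to 196 and 108 to 225. Between the 2 db/db groups 1 fibroblast marker passed, as higher with USP28 virus, as did 0.298% of all genes. The part of these cell types in the mitochondrial values was not tested.

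**Figure D2:**
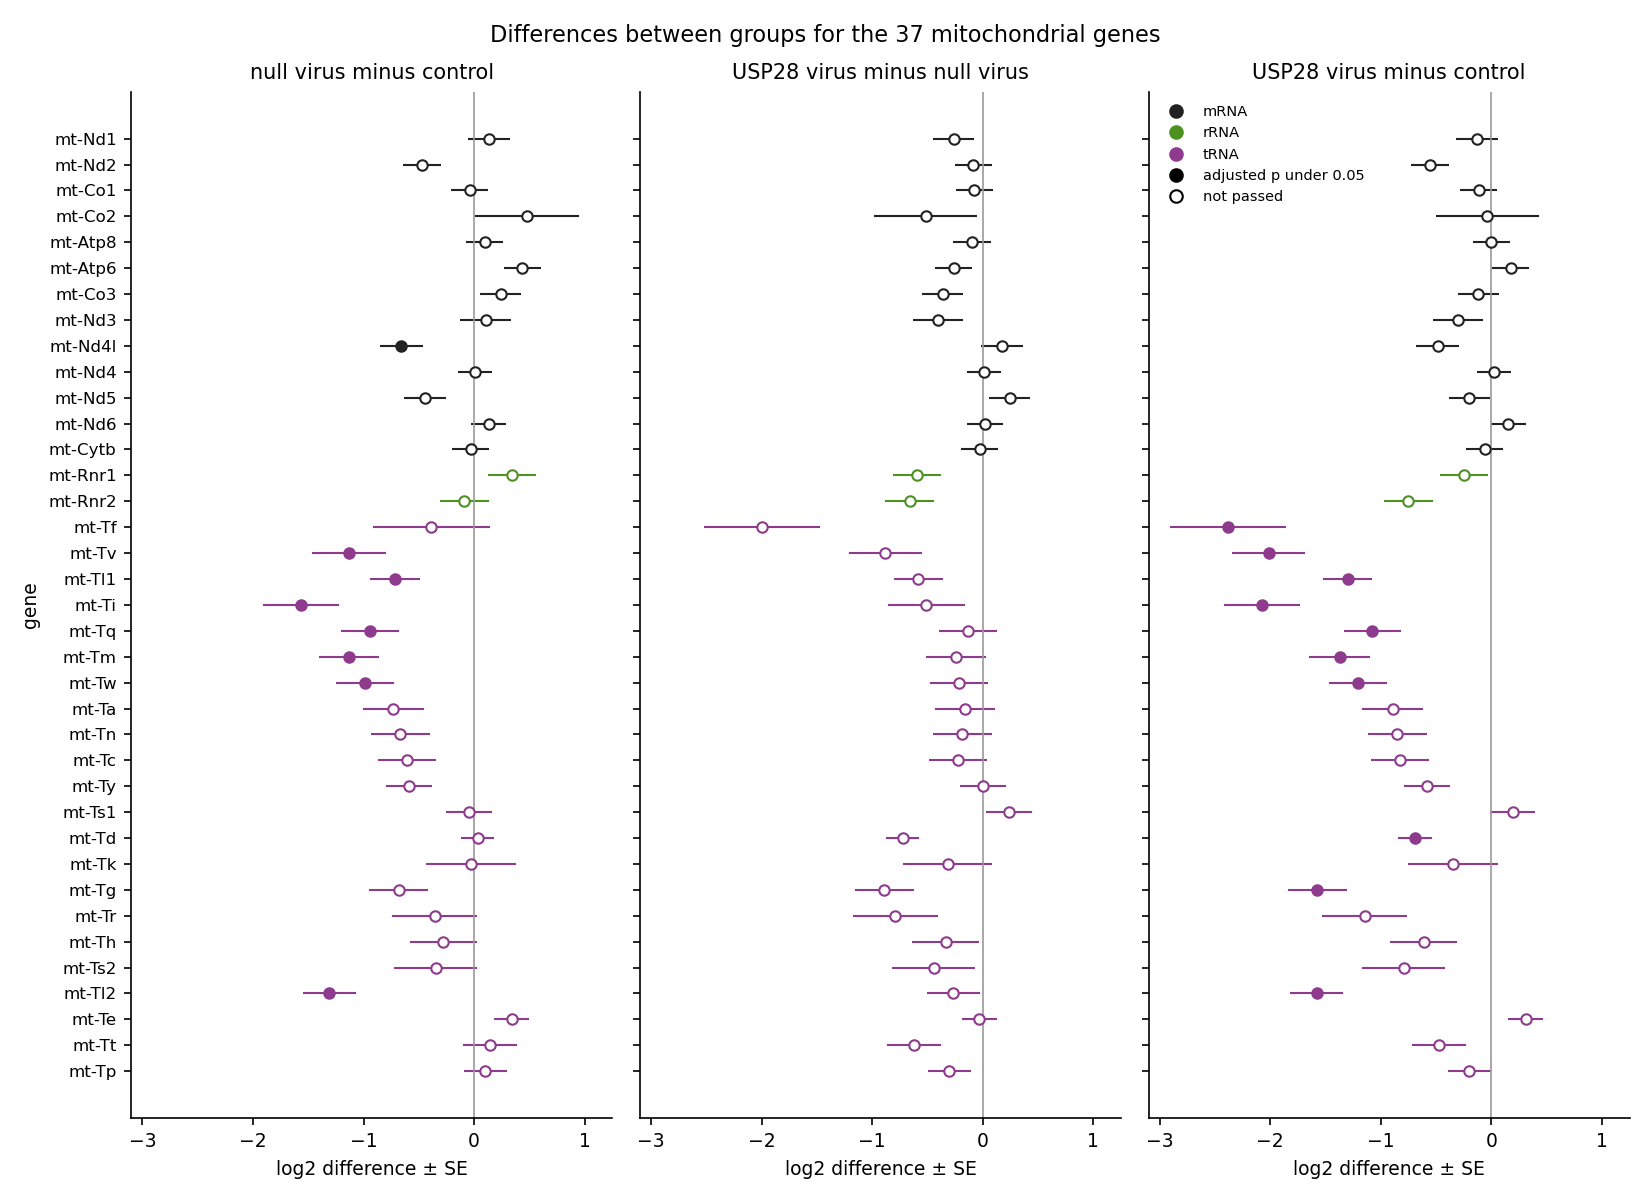
Log2 differences ± SE (limma) of the 37 mitochondrial genes in the 3 comparisons, black for mRNAs, green for rRNAs and purple for tRNAs, filled where the adjusted p was under 0.05. Most tRNAs lie left of 0 in all 3 panels, whereas the mRNAs lie on both sides of it.

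Complex I is the entry point for electrons from NADH, and 7 of its core subunits are mitochondrial. mt-Nd1 (MT:2751-3707, plus strand) was at 22797, 21343 and 22344 scaled RPKM in control replicates 1 to 3, 31296, 20145 and 22819 with null virus and 17723, 22779 and 20559 with USP28 virus. Null-virus replicate 1 was the highest of the 9 and the groups overlapped. mt-Nd2 (MT:3914-4951, plus strand) was at 24327, 24734 and 25997 in control, 17856, 17513 and 18859 in null-virus and 13598, 20857 and 17411 in USP28-virus libraries. Every control library lay above all 6 db/db libraries, but the log2 differences of -0.47 (SE 0.17, limma adjusted p = 0.0776) and -0.55 (adjusted p = 0.0676) did not pass.

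mt-Nd4l and mt-Nd4 are read from 1 bicistronic mRNA, and their reading frames overlap by 7 bases. mt-Nd4l (MT:9877-10173, plus strand) was at 19904, 19918 and 20796 scaled RPKM in control, 11756, 12555 and 14174 in null-virus and 10865, 18078 and 15254 in USP28-virus libraries. The control mean was 20206 ± 511 and the null-virus mean 12828 ± 1232 (SD, n = 3), a fall of 0.66 on the log2 scale (SE 0.19, limma adjusted p = 0.0402). The control libraries lay within a narrow band above every db/db library, of which USP28-virus replicate 2 came closest. Against control the USP28-virus difference of -0.49 did not pass (adjusted p = 0.136). mt-Nd4 (MT:10167-11544, plus strand), the other frame of that mRNA, was at 13090.0, 13264 and 14544 in control, 16080.2, 12261 and 13004 in null-virus and 12305, 14787 and 14476 in USP28-virus libraries, and its groups overlapped in all 3 comparisons. The null-virus difference of mt-Nd4l did not pass without control replicate 1, 2 or 3, null-virus replicate 2 or USP28-virus replicate 3.

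mt-Nd5 (MT:11742-13565, plus strand) was at 16504, 16132 and 17365 scaled RPKM in control, 11602, 11806 and 13407 in null-virus and 11336, 18664 and 14406 in USP28-virus libraries. All null-virus libraries lay below control (log2 -0.44, limma adjusted p = 0.117, not passed), and USP28-virus replicate 2 lay above it. mt-Nd3 (MT:9459-9806, plus strand), which shares reads with Gm28438, was at 859.9, 763 and 809.9 in control, 1295, 716 and 710.0 in null-virus and 564, 695 and 724 in USP28-virus libraries. Null-virus replicate 1 was the highest of the 9 for mt-Nd3, and the USP28-virus libraries lay below control (log2 -0.30, adjusted p = 0.424, not passed).

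mt-Nd6 (MT:13552-14070, minus strand), the sole mRNA of the minus strand, had the highest level of the 37 rows as counted, a mean of 40362 scaled RPKM over the 9 libraries, and with the copies' reads added mt-Atp6 lay above it in all 9. It was at 38758, 35839 and 38324 in control, 46201, 38374 and 39469 in null-virus and 36397, 48668 and 41227 in USP28-virus libraries, and no comparison passed. The gene overlaps mt-Nd5 on the other strand by 14 bases, and its whole length is also part of plus-strand precursor RNA. The libraries were directional, but the strand setting of the counting was not given in the sources used here, so reads from RNA of either strand over these bases cannot be told apart.

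mt-Cytb (MT:14145-15288, plus strand) encodes the cytochrome b of complex III. Its level was 22944, 21054 and 23289.9 scaled RPKM in control, 25636, 19800.2 and 20714 in null-virus and 18189, 24085 and 22652 in USP28-virus libraries, and the groups overlapped in each comparison. Together with mt-Nd4 and mt-Co3 it is 1 of 3 mRNAs whose annotated length ends on the first base of a stop codon. The rest of that codon is made by polyadenylation of the cleaved RNA. mt-Nd1 and mt-Nd2 are annotated with a full TAG, whose last bases also belong to the next tRNA gene (mt-Ti and mt-Tw). The last 30 bases of the 3 mRNAs, from GENCODE M21 on GRCm38 (plus strand), are shown with the first base of the stop codon in capitals. They lie at MT:15259-15288, MT:11515-11544 and MT:9361-9390.
mt-Cytb: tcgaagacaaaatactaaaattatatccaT
mt-Nd4: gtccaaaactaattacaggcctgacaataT
mt-Co3: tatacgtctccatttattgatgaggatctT

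Complex IV, cytochrome c oxidase, has its 3 catalytic subunits encoded in the organelle. mt-Co1 (MT:5328-6872, plus strand), which binds the haem groups, was at 19877, 20715 and 22429 scaled RPKM in control, 23732, 17516 and 20446 in null-virus and 16549, 21442 and 20407 in USP28-virus libraries. Its groups overlapped, with log2 differences of -0.04, -0.08 and -0.12 in the order of the comparisons above. The row of mt-Co3 (MT:8607-9390, plus strand) was at 26.8, 25.1 and 25.6 in control, 39, 27.2 and 26.7 in null-virus and 18.8, 24.6 and 28.9 in USP28-virus libraries, and no comparison passed. With the copy's reads added, mt-Co3 was at 26747, 15862 and 16644 in null-virus and 16212, 17217 and 18905 in USP28-virus libraries. Control was then at 14943, 14959.7 and 16398, and no comparison of mt-Co3 passed in that fit either.

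The row of mt-Co2 (MT:7013-7696, plus strand), the subunit that takes electrons from cytochrome c, split the libraries in a way that crossed the groups. It was at 86.3, 160.2 and 89.6 scaled RPKM in control, 246, 166 and 82.3 in null-virus and 73.8, 186 and 83.5 in USP28-virus libraries. Control replicate 2, null-virus replicates 1 and 2 and USP28-virus replicate 2 were high, and the other 5 libraries were low, with no library between. Gm28661 was at 38119, 59511 and 39020.0 in control, 84854, 57256 and 34973 in null-virus and 31439, 67550.0 and 38317 in USP28-virus libraries. Gm13341 was at 760.3, 1709 and 772 in control, 1648, 1263 and 615 in null-virus and 607, 1847 and 626 in USP28-virus libraries, and the same 4 libraries were high in each. Gm10925, Gm28437 and Gm29216, the copies of mt-Atp6, mt-Co3 and mt-Co1, did not divide the libraries in this way.

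Of 10730 genes with a median above 1 RPKM, 24 had all 4 of these libraries above all 5 others, and the gap between the lowest of the 4 and the highest of the 5 was largest for mt-Co2 (0.84 on the log2 scale). Gm13341 (0.71), Snord78 (0.56) and Gm28661 (0.55) came next, and the fifth gene had a gap of 0.13. The 4 libraries were chosen after the values were seen, no test was made, and the cause was not tested. Because each group held libraries of both levels, mt-Co2 had the widest error of the 13 mRNAs, with an SE of 0.47 in each comparison.

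**Figure D3:**
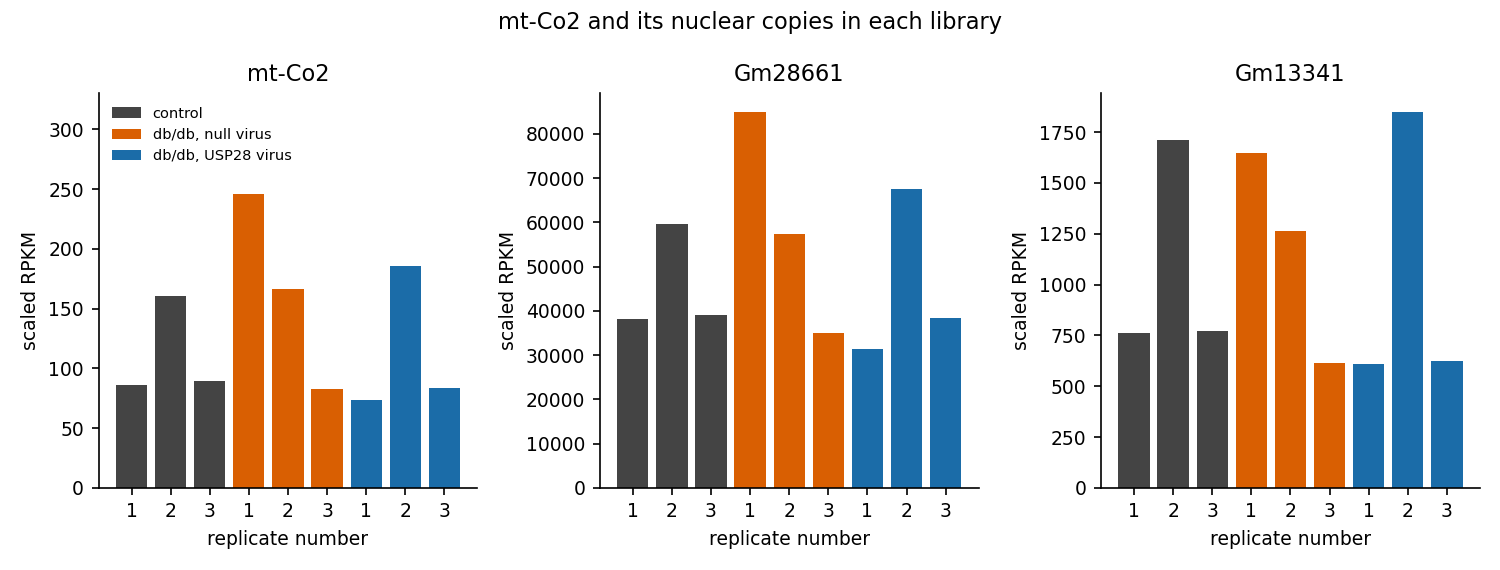
Scaled RPKM of mt-Co2 and of its copies Gm28661 and Gm13341 in each library (bars, replicate number on the x axis, coloured by group; each panel has its own scale from 0). Control 2, null virus 1 and 2 and USP28 virus 2 are high in all 3 panels, so the high libraries do not follow the groups.

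ATP synthase takes its subunits a and 8 from mt-Atp6 and mt-Atp8, which are read from a bicistronic mRNA and overlap by 43 bases. The overlap (MT:7927-7969, plus strand) is shown with the start codon of mt-Atp6 and the stop codon of mt-Atp8 in capitals, because reads here belong to both genes.
mt-Atp8 and mt-Atp6 overlap: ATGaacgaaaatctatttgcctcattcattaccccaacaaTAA

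The row of mt-Atp8 (MT:7766-7969, plus strand) was at 67.4, 59.5 and 72.1 scaled RPKM in control, 89.5, 67 and 58.8 in null-virus and 57.1, 72.8 and 69.3 in USP28-virus libraries. That of mt-Atp6 (MT:7927-8607, plus strand) was at 106, 88.5 and 104 in control, 174, 125 and 109.6 in null-virus and 107, 117 and 110.1 in USP28-virus libraries. All null-virus and all USP28-virus libraries lay above control for mt-Atp6, and neither difference passed (log2 0.44, limma adjusted p = 0.0896, and 0.17, adjusted p = 0.536). With the copy's reads added, mt-Atp6 was at 80368, 51435 and 53709.5 in null-virus and 51405.5, 51441 and 58580 in USP28-virus libraries. All db/db libraries again lay above control (45951, 45272 and 49085), and no comparison of mt-Atp6 passed in that fit. mt-Atp8 shares no 50-base window with a nuclear transcript of the annotation, yet stood at only 68.2 scaled RPKM on average, beside 116 for the remainder of mt-Atp6. The block on chromosome 1 runs on between Gm10925 and Gm28661, where the table has no gene.

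The rRNAs form the small (mt-Rnr1) and large (mt-Rnr2) ribosomal subunits and carry at most short tails, so libraries made from poly(A)-selected RNA hold an unknown share of them. mt-Rnr1 (MT:70-1024, plus strand) was at 538, 567 and 776 scaled RPKM in control, 1028, 680.2 and 692 in null-virus and 459.7, 485 and 633 in USP28-virus libraries. mt-Rnr2 (MT:1094-2675, plus strand) was at 704, 882 and 1224 in control, 825, 836 and 914 in null-virus and 436, 545 and 671 in USP28-virus libraries. Both were lower in every USP28-virus library than in any null-virus library. The log2 differences were -0.59 (SE 0.22, limma adjusted p = 0.23) and -0.66 (SE 0.22, adjusted p = 0.19), and neither passed. Against control mt-Rnr2 differed by -0.75 (adjusted p = 0.0593), just outside the threshold, and mt-Rnr1 by -0.25. Among 78 nuclear genes listed by symbol as making RNA without a poly(A) tail, such as Rn7sk and histone genes, the share of reads was 0.0160% to 0.0171% in control, 0.0223% to 0.0283% in null-virus and 0.0189% to 0.0203% in USP28-virus libraries. Much of it lay in few histone rows. Means of Hist2h2aa2, Hist1h1c and Hist1h2bc were 84.0, 47.5 and 40.3 scaled RPKM in control, where the list summed to 193 to 217. Hist1h1c rose to a mean of 95.1 with null virus (limma adjusted p = 0.00157), and the null-virus share partly follows this gene. Whether these histone rows hold RNA without a tail was not tested, nor was the part of such RNA in the rRNA and tRNA values.

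The 22 tRNA rows covered 59 to 75 bases each, shorter than the 150-bp reads, so a read counted there may come from a tRNA or from a longer RNA that spans it, and the table does not part them. The libraries were made from poly(A)-selected RNA, and the share of mature tRNA in these rows is unknown. Differences given below are thus of the rows and not of mature tRNAs. Their mean levels over the 9 libraries ran from 1.68 scaled RPKM for mt-Tk to 23741 for mt-Ty. The 8 tRNAs of the minus strand had a median of 8054, and the 14 of the plus strand a median of 289. Of the 7 highest tRNAs, 6 were on the minus strand (mt-Ty, mt-Te, mt-Tc, mt-Tn, mt-Ta and mt-Tq), and the seventh was mt-Tm. As for mt-Nd6, reads of RNA from either strand cannot be told apart here, so these are levels of the intervals and not of a strand's RNA. The tRNA levels followed those of their flanking mRNA and rRNA rows as counted in part, with Pearson's r of 0.66 and Spearman's rho of 0.52 on the log2 scale. The 22 tRNAs share flanking genes and libraries and are not independent. The copies' reads were left out of the flanking levels, so mt-Co2 and mt-Co3 entered as low rows beside mt-Ts1, mt-Td, mt-Tk and mt-Tg. No correlation was taken with the copies' reads added, so these values describe the rows as counted only.

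The 3 tRNAs with the highest level and the lowest, with mt-Tf and mt-Tl1 from the rRNA end of the genome, are printed from GENCODE M21 (GRCm38) with the anticodon in capitals. They show how short each counted interval is, and mt-Tf and mt-Tl1 are among those that fell. mt-Ty (MT:5260-5326) and mt-Te (MT:14071-14139) lie on the minus strand, and mt-Tm (MT:3845-3913), mt-Tk (MT:7700-7764), mt-Tf (MT:1-68) and mt-Tl1 (MT:2676-2750) on the plus strand. mt-Tk was chosen for display after its values were seen.
mt-Ty: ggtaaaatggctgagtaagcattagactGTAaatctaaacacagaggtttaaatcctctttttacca
mt-Te: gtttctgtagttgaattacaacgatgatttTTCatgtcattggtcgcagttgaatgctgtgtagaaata
mt-Tm: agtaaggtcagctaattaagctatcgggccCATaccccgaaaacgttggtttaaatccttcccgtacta
mt-Tk: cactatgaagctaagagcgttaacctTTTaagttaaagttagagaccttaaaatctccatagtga
mt-Tf: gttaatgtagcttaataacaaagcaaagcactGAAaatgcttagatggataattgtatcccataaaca
mt-Tl1: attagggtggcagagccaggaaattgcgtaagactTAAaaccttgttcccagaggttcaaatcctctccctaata

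**Figure D4:**
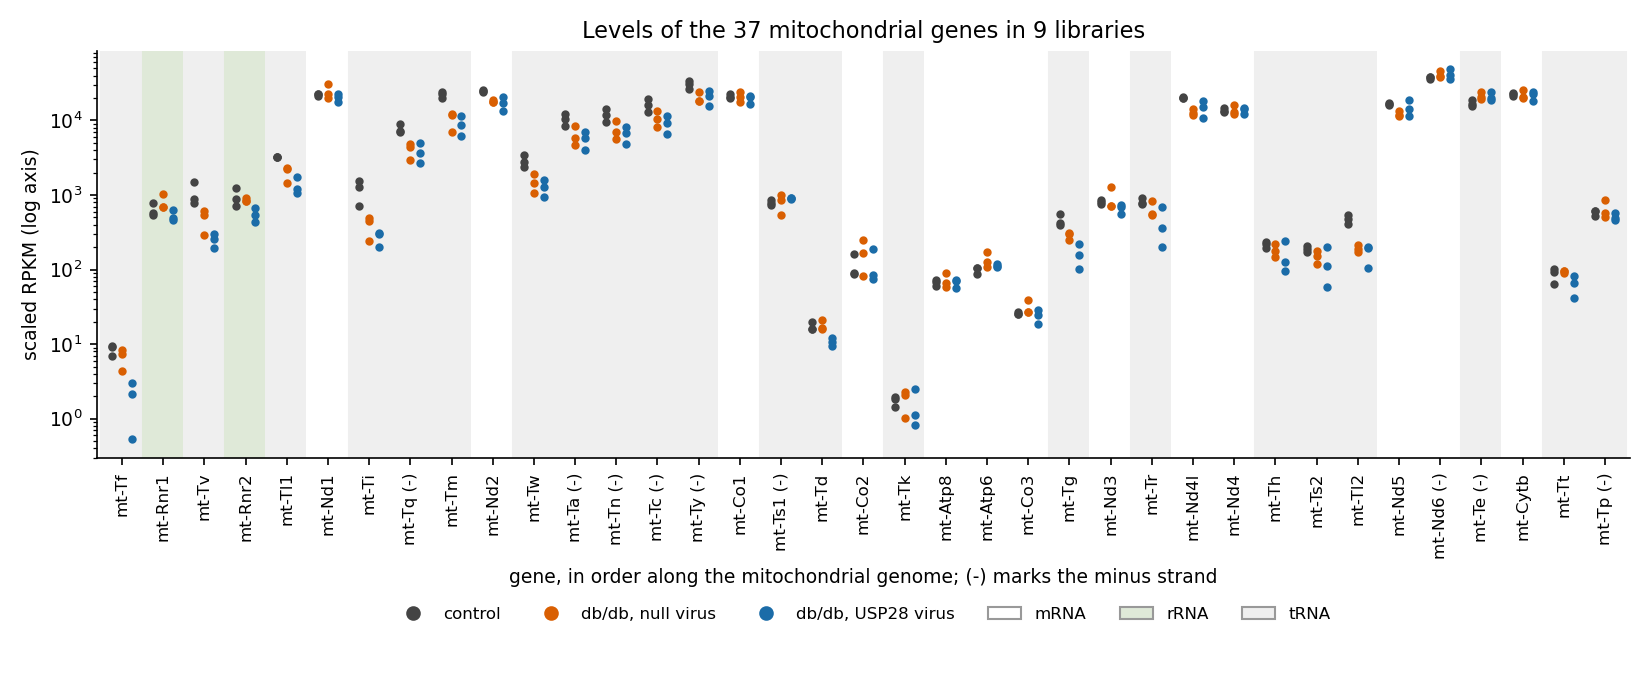
Scaled RPKM (log axis) of the 37 genes in their order along the mitochondrial genome, 1 point per library, coloured by group, with rRNAs on green, tRNAs on grey and mRNAs on white. The copies' reads are not added, and on these values mt-Nd6 has the highest mean and mt-Tk the lowest, and the minus-strand tRNAs between mt-Nd2 and mt-Co1 lie near the mRNAs.

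Between mt-Rnr1 and mt-Nd2 lie mt-Tv, mt-Tl1, mt-Ti, mt-Tq and mt-Tm, the tRNAs for valine, leucine, isoleucine, glutamine and methionine, and all 5 fell in both db/db groups. mt-Tm was at 19795, 22502 and 24213 scaled RPKM in control, 6974, 12229 and 12002 in null-virus and 6272, 11337 and 8707 in USP28-virus libraries. It fell by 1.13 on the log2 scale with null virus (SE 0.27, limma adjusted p = 0.0212) and by 1.37 with USP28 virus (adjusted p = 0.0172), both against control. Every db/db library lay well below the lowest control library. mt-Ti (MT:3706-3774, plus strand) was at 715, 1269 and 1529 in control, 244, 447 and 491 in null-virus and 201, 302 and 306 in USP28-virus libraries. Control replicate 1 was the lowest of its group and still above all db/db libraries, and the falls were 1.56 (SE 0.35, adjusted p = 0.0149) and 2.07 (adjusted p = 0.00973).

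mt-Tl1, the leucine tRNA that follows mt-Rnr2, was at 3234, 3227 and 3198 scaled RPKM in control, 1469, 2210.1 and 2312 in null-virus and 1062, 1743 and 1204 in USP28-virus libraries. The control libraries were nearly equal, and db/db libraries were all lower, by 0.72 (limma adjusted p = 0.0496) and 1.30 (adjusted p = 0.0107) on the log2 scale. mt-Tv (MT:1025-1093, plus strand), between the rRNAs, was at 775, 879.5 and 1479 in control, 289, 616 and 537 in null-virus and 197, 259 and 299.6 in USP28-virus libraries. Control replicate 3 was the highest, and the log2 differences were -1.13 (adjusted p = 0.0408) and -2.01 (adjusted p = 0.00933). mt-Tq (MT:3772-3842), of the minus strand, was at 7025, 8932 and 7296 in control, 2989, 4451 and 4846 in null-virus and 2686, 4984 and 3649 in USP28-virus libraries. It fell by 0.94 (adjusted p = 0.0328) and 1.08 (adjusted p = 0.0312), with no overlap between control and db/db libraries.

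Downstream of mt-Nd2, mt-Tw, the tryptophan tRNA (MT:4950-5016, plus strand), was at 2396, 2797 and 3469 scaled RPKM in control, 1079, 1434 and 1915 in null-virus and 930.2, 1595 and 1281 in USP28-virus libraries. It fell by 0.99 on the log2 scale (limma adjusted p = 0.029) and 1.20 (adjusted p = 0.0232). Its neighbours mt-Ta, mt-Tn, mt-Tc and mt-Ty on the minus strand, for alanine, asparagine, cysteine and tyrosine, had log2 differences of -0.73, -0.67, -0.60 and -0.59 with null virus and -0.89, -0.85, -0.83 and -0.58 with USP28 virus, and none of the 4 passed. mt-Tl2, the other leucine tRNA (MT:11671-11741, plus strand), was at 479, 413 and 538 in control, 189, 212 and 173 in null-virus and 104, 199 and 192 in USP28-virus libraries. Control libraries were all high and db/db libraries all low, with falls of 1.31 (SE 0.24, adjusted p = 0.00714) and 1.58 (SE 0.24, adjusted p = 0.00713). Both falls of mt-Tl2 passed with each of the 9 libraries left out in turn, as did those of mt-Tg, mt-Ti and mt-Tv between USP28 virus and control.

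mt-Tf, mt-Td and mt-Tg passed in USP28 virus against control but not in null virus against control, and these 2 comparisons share the control libraries. With null virus their log2 differences were -0.39, 0.03 and -0.68 (limma adjusted p = 0.624, 0.895 and 0.0937). Nuclear copies of these tRNAs outside annotated transcripts were not searched for. mt-Tg, the glycine tRNA between mt-Co3 and mt-Nd3 (MT:9391-9458, plus strand), was at 427, 393 and 557 scaled RPKM in control, 306, 300.1 and 245 in null-virus and 101, 158 and 221 in USP28-virus libraries. The 3 groups formed 3 steps without overlap, with log2 differences of -1.57 between USP28 virus and control (limma adjusted p = 0.010) and -0.89 between USP28 virus and null virus (adjusted p = 0.159, not passed). mt-Td, the aspartate tRNA (MT:6942-7011, plus strand), was at 16, 19.8 and 15.9 in control, 21, 15.7 and 16.3 in null-virus and 10.5, 9.32 and 12 in USP28-virus libraries. Its USP28-virus libraries lay below all 6 others, by 0.69 against control (adjusted p = 0.0232) and 0.72 against null virus (adjusted p = 0.0794, not passed). mt-Tf, the phenylalanine tRNA at the start of the rRNA transcription unit, rested on few reads, 36, 20 and 31 in control, 9, 23 and 22 in null-virus and 2, 6 and 10 in USP28-virus libraries. In scaled RPKM it was at 9.56, 6.93 and 9.06 in control, 4.32, 8.46 and 7.26 in null-virus and 0.529, 2.13 and 3.03 in USP28-virus libraries, and the log2 difference from control to USP28 virus was -2.38 (adjusted p = 0.0239). Between USP28 virus and null virus it was -2.00 (adjusted p = 0.129, not passed).

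The other tRNAs did not pass in any comparison. mt-Te, the glutamate tRNA next to mt-Nd6 on the minus strand, was at 18577, 15744 and 16503 scaled RPKM in control, 23857, 19707 and 20732 in null-virus and 18876, 24045 and 20158 in USP28-virus libraries. All db/db libraries lay above control, and the log2 differences of 0.34 (limma adjusted p = 0.144) and 0.31 (adjusted p = 0.23) did not pass. mt-Tr, mt-Th and mt-Ts2, for arginine, histidine and a serine codon group, had differences of -1.15, -0.61 and -0.79 between USP28 virus and control, with USP28-virus replicate 1 the lowest library and replicate 3 the highest of its group in each. mt-Ts1, mt-Tt and mt-Tp, for serine, threonine and proline, had differences of 0.19, -0.48 and -0.20. mt-Tk, the lysine tRNA, held 2 to 8 reads in each library, too few to read a difference from. By strand, 6 of the 14 plus-strand tRNAs fell with null virus and 9 with USP28 virus against control, while mt-Tq was the 1 of 8 on the minus strand in each. Of all genes, 12.5% and 6.3% passed as lower in these comparisons. The counts depend on the threshold, and with null virus the median log2 difference was -0.53 on the plus and -0.60 on the minus strand. Unadjusted limma p was under 0.05 there for 7 of 14 and 5 of 8. With USP28 virus the medians were -1.25 and -0.71. The difference between the strands was not tested, and the limit on strand given above holds for these counts.

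Of all counted reads, the 13 mRNA rows took 17.5, 17.6 and 18.1% in control, 15.8, 15.8 and 17.3% in null-virus and 15.1, 19.1 and 16.8% in USP28-virus libraries. USP28-virus replicates 1 and 2 were the lowest and the highest of all 9, and the difference over the 3 groups did not pass (exact permutation test over 1680 arrangements, p = 0.439). The rRNA rows took 0.159, 0.195 and 0.258% in control, 0.195, 0.208 and 0.222% in null-virus and 0.124, 0.134 and 0.167% in USP28-virus libraries (exact p = 0.111). All USP28-virus libraries lay below all null-virus libraries for the rRNAs, and control overlapped both. The tRNA rows took 0.765, 0.883 and 0.933% in control, 0.452, 0.615 and 0.733% in null-virus and 0.478, 0.677 and 0.561% in USP28-virus libraries (exact p = 0.05, not under the threshold). Control lay above every db/db library for the tRNAs, and for pairs of groups the exact two-sided p was 0.1 for either db/db group against control, the smallest that 3 against 3 allows.

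The nuclear copies took a further 7.57% to 12.8% of the reads. Mitochondrial genes and copies together took 24.3% to 30.6%, with means of 27.1% ± 0.988 in control, 27.7% ± 1.43 in null-virus and 27.2% ± 3.16 in USP28-virus libraries (SD, n = 3, exact permutation p = 0.936). For the mitochondrial rows alone the means were 18.8% ± 0.458 in control, 17.1% ± 0.973 in null-virus and 17.7% ± 2.11 in USP28-virus libraries (exact p = 0.361). The db/db groups lay below control in the second set of means and above it in the first, so the sign of the total depends on whether copies are counted.

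**Figure D5:**
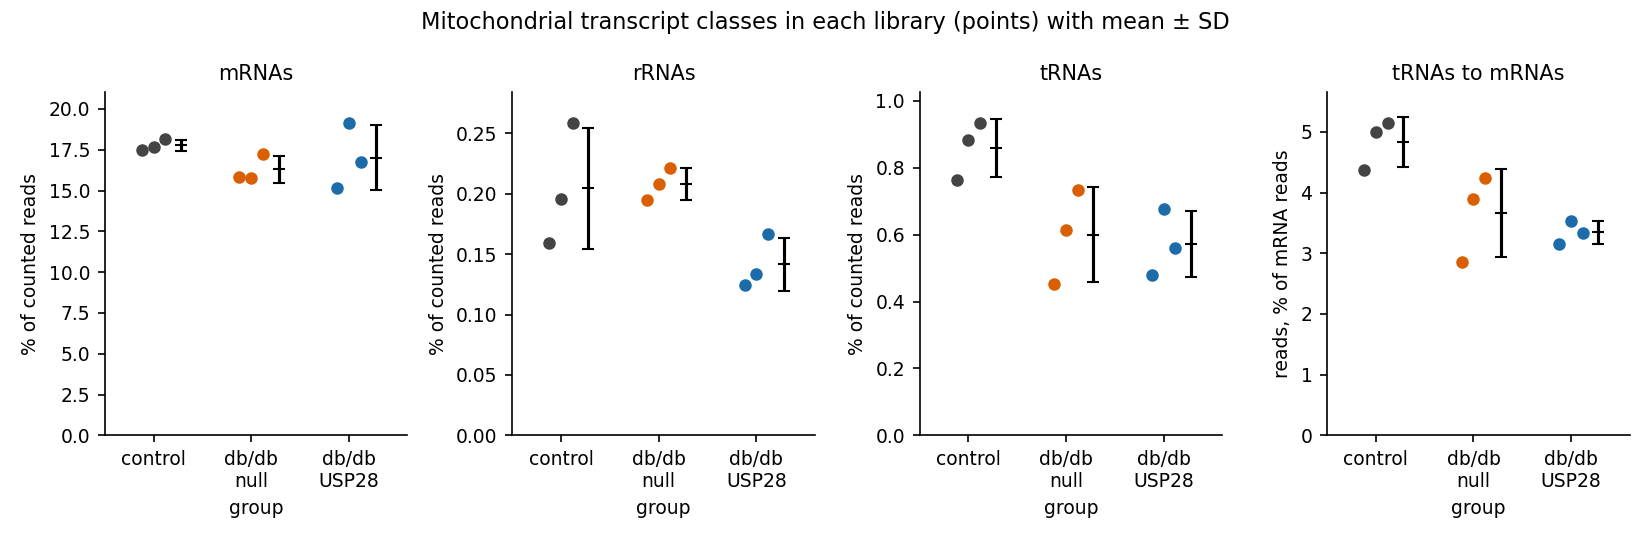
Share of counted reads (%) taken by the mitochondrial mRNAs, rRNAs and tRNAs, and tRNA reads as a percentage of mRNA reads, for each library (points) with the mean ± SD of each group of 3 (bars). tRNAs are lower in all 6 db/db libraries than in control, whereas for the mRNAs the null-virus libraries lie below control and USP28-virus replicate 2 above it.

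Ratios between transcripts of the same library do not depend on scaling. Of 22 such ratios, 0 passed after adjustment over the family (exact permutation test over the 3 groups, smallest adjusted p = 0.0688). Their values are given as a description of the libraries. Reads of tRNAs were 4.37, 5.0 and 5.14% of those of mRNAs in control, 2.85, 3.9 and 4.24% in null-virus and 3.16, 3.54 and 3.34% in USP28-virus libraries (exact p = 0.0464, adjusted p = 0.0929). All 6 db/db libraries lay below control, and null-virus replicate 1 was the lowest. The mRNA rows leave out most reads of mt-Co2, mt-Atp6 and mt-Co3, so the ratios and shares were also taken with the copies' reads added, a choice made after seeing the data, and again 0 passed. The tRNA reads were then 3.05, 3.28 and 3.58% in control, 1.58, 2.38 and 2.82% in null-virus and 2.01, 2.27 and 2.17% in USP28-virus libraries, all db/db libraries again below control.

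The ratio of mt-Nd4l to mt-Nd4 was 32.8, 32.4 and 30.8% in control, 15.8, 22.1 and 23.5% in null-virus and 19, 26.3 and 22.7% in USP28-virus libraries (exact permutation p = 0.0250, adjusted p = 0.0688). The 3 control libraries were close together and above all db/db libraries, although the 2 frames share an mRNA. The ratio of mt-Atp8 to mt-Atp6 was 19.1, 20.1 and 20.8% in control, 15.4, 16 and 16.1% in null-virus and 16, 18.6 and 18.8% in USP28-virus libraries (exact p = 0.0107, adjusted p = 0.0688). Control was again the highest, but nearly all mt-Atp6 reads stand under its copy, and with them added USP28-virus replicate 2 lay within the range of control. For mt-Nd4l to mt-Nd4, control still lay above all db/db libraries with the copies' reads added. Reads of mt-Nd6 were 12.7, 11.9 and 11.8% of those of the other 12 mRNAs in control, 14.8, 15.3 and 14.3% in null-virus and 15.9, 15.4 and 14.6% in USP28-virus libraries (exact p = 0.0143, adjusted p = 0.0688). The db/db libraries were all above control in this ratio of rows. With the copies' reads added it was 8.53, 7.51 and 7.95% in control, 7.66, 8.82 and 9.03% in null-virus and 9.6, 9.36 and 9.03% in USP28-virus libraries (exact p = 0.0643, adjusted p = 0.177), so null-virus replicate 1 lay within the range of control.

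By complex, the 7 complex I mRNAs made up 67.7% ± 0.379 of the reads of the mRNA rows in control, 65.7% ± 1.22 in null-virus and 66.6% ± 1.16 in USP28-virus libraries (SD, n = 3, exact permutation p = 0.139). With the copies' reads added the share was 46.4% ± 1.57, 40.2% ± 4.23 and 43% ± 0.732 in the 3 groups (exact p = 0.0536, adjusted p = 0.177). Complex IV then took 31.8% ± 2.59, 35.5% ± 3.93 and 32.9% ± 1.88 (exact p = 0.329, adjusted p = 0.402). Complex V took 12.1% ± 0.428, 15.1% ± 1.03 and 14.5% ± 2.32 (exact p = 0.143, adjusted p = 0.241). Shares of the complexes are parts of the same whole and do not move independently. mt-Nd2 took 14.4% ± 0.275 of the mRNA reads in control, 11.3% ± 1.20 in null-virus and 10.8% ± 0.578 in USP28-virus libraries, lower in every db/db library, and with copies added 9.83% ± 0.181, 6.94% ± 1.27 and 6.96% ± 0.398, again lower in each. mt-Nd5 took 16.8% ± 0.0159 in control, 13.6% ± 1.90 in null-virus and 16.2% ± 1.53 in USP28-virus libraries. mt-Nd1 took 11.8% ± 0.421, 14.1% ± 1.75 and 11.9% ± 0.432 in control, null-virus and USP28-virus libraries. For both, the null-virus libraries stood clear of the control and USP28-virus libraries (exact p = 0.0250 over the 3 groups, adjusted p = 0.0688), mt-Nd5 below them and mt-Nd1 above. Neither separation held with the copies' reads added. mt-Nd1 was then at 8.53, 7.67 and 7.92% in control, 8.89, 7.84 and 8.83% in null-virus and 7.86, 7.39 and 7.62% in USP28-virus libraries, with null-virus replicate 2 within the range of control. mt-Nd5 was at 11.8, 11 and 11.7% in control, 6.28, 8.76 and 9.89% in null-virus and 9.58, 11.5 and 10.2% in USP28-virus libraries, with null virus below control and overlapping USP28 virus. mt-Cytb took 14.2% ± 0.460 in control, 15.1% ± 0.665 in null-virus and 15% ± 0.467 in USP28-virus libraries (exact p = 0.171).

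The nuclear genes that copy, transcribe and process mitochondrial RNA were read from 6 lists, whose members were chosen by role. The replication, transcription, cleavage, stability, decay and modification lists had 10, 14, 7, 14, 8 and 22 genes tested, with Tfam, Tbrg4, Fastkd5 and Grsf1 each in 2 lists. With null virus, 21 distinct genes of these lists passed against control. Nrf1, Slirp, Trmt5 and Trmu rose, and the rest fell. With USP28 virus, 12 passed against control, all lower, and 0 passed against null virus in limma, where 0 to 3 genes of a list had an unadjusted p under 0.05 and limma voom called 2. Over all genes, 2341 of 14104 had an unadjusted p under 0.05 between the 2 db/db groups. The median log2 difference of the lists ran from -0.39 for RNA decay to 0.06 for replication with null virus, and from -0.37 for stability to -0.12 for cleavage with USP28 virus against control. Over all genes those medians were -0.0052 and -0.0025. As given above, 22.2% and 11.7% of all genes passed in these comparisons, 12.5% and 6.3% as lower.

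Of the replication list, 10 of 13 genes were tested, and 3 fell with null virus and 2 with USP28 virus. Twnk, the helicase that unwinds mitochondrial DNA, was at 15.7, 14.3 and 15.9 scaled RPKM in control, 9.85, 12.1 and 12 in null-virus and 8.75, 10.2 and 10.3 in USP28-virus libraries, a fall of 0.44 (limma adjusted p = 0.0264) and 0.65 (adjusted p = 0.0113) on the log2 scale. Rrm2b, a ribonucleotide reductase subunit that supplies nucleotides outside S phase, fell by 0.77 with null virus (adjusted p = 0.0196). Tfam, which packages mitochondrial DNA and activates its promoters, was at 8.7, 8.6 and 8.1 in control, 7.37, 5.85 and 5.85 in null-virus and 5.67, 6.68 and 6.21 in USP28-virus libraries. No db/db library reached the lowest control library, and Tfam fell by 0.42 (adjusted p = 0.0335) and 0.45 (adjusted p = 0.038).

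Of 14 tested genes of the transcription list, which also holds Tfam, 5 fell and 1 rose with null virus and 2 fell with USP28 virus. Polrmt, the polymerase, was at 3.23, 3.1 and 3.14 scaled RPKM in control, 2.29, 2.8 and 2.77 in null-virus and 2.25, 2.91 and 2.57 in USP28-virus libraries. Control was highest, and the log2 differences of -0.27 (limma adjusted p = 0.155) and -0.29 (adjusted p = 0.169) did not pass. Tfb2m, which opens the promoter, differed by -0.18 and -0.29 and did not pass. Mterf2, of the termination factor family, fell by 0.66 (adjusted p = 0.0164) and 0.89 (adjusted p = 0.00986). Ppargc1b, a coactivator of mitochondrial biogenesis, was at 5.4, 3.39 and 4.21 in control, 1.92, 1.55 and 2.36 in null-virus and 3.81, 3.69 and 5.16 in USP28-virus libraries. It fell by 1.11 with null virus (adjusted p = 0.00846), and the USP28-virus libraries lay within the range of control, above null virus by 1.08 (adjusted p = 0.0712, not passed). Nrf1, a nuclear activator of Tfam and of respiratory genes, rose by 0.65 with null virus (adjusted p = 0.00923).

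The cleavage list, the enzymes that cut tRNAs out of the precursors and finish their 3′ ends, had 7 tested genes, of which 1 fell with null virus and 2 with USP28 virus. Fastkd5, needed to cut at mRNA ends that lack a tRNA and also in the stability list below, was the 1 in common, with falls of 0.47 (limma adjusted p = 0.0347) and 0.57 (adjusted p = 0.0276). Trmt10c, a subunit of mitochondrial RNase P, was at 6.8, 7.39 and 7.25 scaled RPKM in control, 6.69, 5.31 and 5.35 in null-virus and 4.52, 4.62 and 5.11 in USP28-virus libraries. The 3 groups did not overlap, and it fell by 0.58 with USP28 virus (adjusted p = 0.0156), where the null-virus difference of -0.31 did not pass (adjusted p = 0.0788).

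Among 14 genes of mRNA stability and polyadenylation, 6 fell and 1 rose with null virus, and 6 fell with USP28 virus. Lrpprc, which keeps the mRNAs stable and polyadenylated, was at 15.6, 15.1 and 16.3 scaled RPKM in control, 12.7, 11.5 and 12.2 in null-virus and 11.4, 12.4 and 13.2 in USP28-virus libraries. It fell by 0.37 (limma adjusted p = 0.0213) and 0.35 (adjusted p = 0.0388). Its partner Slirp was at 12.2, 11.3 and 11.9 in control, 21.9, 15.3 and 14.8 in null-virus and 13.2, 13 and 14 in USP28-virus libraries. Slirp rose by 0.53 with null virus (adjusted p = 0.0311), with replicate 1 the highest. The RNAs of these 2 partners thus moved in opposite directions with null virus, and protein was not measured. Taco1, the translational activator of mt-Co1, was at 20.4, 19.9 and 20.5 in control, 6.05, 6.45 and 8.14 in null-virus and 7.23, 9.69 and 10.2 in USP28-virus libraries, falls of 1.56 (adjusted p = 0.000921) and 1.17 (adjusted p = 0.00459). Control and db/db libraries were far apart for Taco1, while mt-Co1 itself did not pass. Fastkd2, which binds mt-Rnr2 and mt-Nd6 RNA, fell by 0.60 (adjusted p = 0.00763) and 0.57 (adjusted p = 0.0169).

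Of 8 genes of RNA decay, 3 fell with null virus and 2 with USP28 virus. Grsf1, an RNA granule protein that binds RNA of the mt-Nd6 region and is also in the stability list, was at 48.8, 47.2 and 50.2 scaled RPKM in control, 28.7, 29.4 and 33 in null-virus and 27.4, 35.9 and 32.3 in USP28-virus libraries. It fell by 0.68 (limma adjusted p = 0.00493) and 0.62 (adjusted p = 0.0139). Pnpt1 and Supv3l1 form the degradosome that removes non-coding mitochondrial RNA. Pnpt1 fell by 0.59 (adjusted p = 0.00908) and 0.56 (adjusted p = 0.0194). Supv3l1 fell by 0.49 with null virus (adjusted p = 0.0116) and differed by -0.31 with USP28 virus (adjusted p = 0.0851, not passed).

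Of 22 genes that modify mitochondrial rRNAs and tRNAs, 2 fell and 2 rose with null virus and 1 fell with USP28 virus. Trmt5, which methylates tRNAs beside the anticodon, was at 6.03, 6.26 and 5.57 scaled RPKM in control, 10.5, 10.4 and 10.3 in null-virus and 4.8, 4.44 and 7.22 in USP28-virus libraries. The null-virus libraries stood above the other 6, and Trmt5 rose by 0.80 (limma adjusted p = 0.0114), while the difference of -0.95 between USP28 virus and null virus lay just outside the threshold (adjusted p = 0.0528). Trmu, which thiolates the wobble base of mt-Tq, mt-Tk and mt-Te, rose by 0.45 with null virus (adjusted p = 0.0146). Mto1, which modifies wobble bases in the same group of tRNAs, fell by 0.80 with USP28 virus (adjusted p = 0.0269). Single libraries moved these counts. The 21 distinct genes that passed with null virus became 13 without control replicate 1 and 8 without control replicate 2 or 3. The 12 that passed with USP28 virus against control became 3 without control replicate 2, 2 without control replicate 3 or USP28-virus replicate 1, 6 without USP28-virus replicate 2 or 3, and 28 without null-virus replicate 1, where 5 also passed between the 2 db/db groups.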

How the data were processed

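Left ventricular RNA of 9 mouse libraries was measured. Per the labels' protocols, polyadenylated RNA from 10 µg of total RNA was made into directional libraries and read as 150-bp pairs. The submitters' processing notes name HISAT2 and DESeq2, without versions, and GRCh38, a human build, whereas 25453 of 30128 gene spans, and all 37 of the mitochondrial genes, are those of GENCODE M21 on the mouse build GRCm38, which is used here. The counting program, its strand setting and its handling of reads with several matches were not given in the sources used here.

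The authors deposited RPKM values with gene lengths. RPKM times length moves in steps worth 1 read, and 99.9839% of nonzero values came out whole (tolerance 0.01 reads), which gave reads and depth (35970332 to 56497662). Class shares are these reads over the library's total.

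RPKM values were scaled by a trimmed mean of M values (30% of ratios and 5% of levels trimmed). Log2(scaled RPKM + 0.1) was fitted in limma 3.58.1 under R 4.3.3 (trend and robust settings on) for the 14104 genes that reached 0.5 RPKM in 3 or more libraries, as 1 fit of 9 libraries in 3 groups without covariates. The pseudocount makes differences of low genes too small. P-values were adjusted by Benjamini-Hochberg over all genes of a comparison, and "rose", "fell" and "passed" mean adjusted p under 0.05. Levels are scaled RPKM. Shares and 22 ratios were compared by exact two-sided permutation tests. The fit was tested on simulated data. Copies were aligned, and sequences read, from GENCODE M21 transcripts with Biopython 1.88 (Python 3.11.15).

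The mitochondrial genes and the lists were chosen with earlier results of these data known. Named were all mRNAs and rRNAs, tRNAs with a median of at least 10 reads, at most 3 passing members per nuclear list by smallest adjusted p, and Polrmt, Tfam, Tfb2m, Lrpprc and Slirp. Alternatives were other scalings, filters and pseudocounts, 2 groups alone, a replicate block, limma voom on the recovered reads, nuclear genes as denominator, copies counted as mitochondrial, and each library left out. Adding copies' reads to single genes was chosen after seeing the data.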

Additional observations from a re-analysis of the deposited data

How the results depend on the processing

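Counts of mitochondrial genes that passed (8, 0 and 10 for null virus against control, USP28 virus against null virus and USP28 virus against control) depended on the filter and on the libraries. Without a filter they were 3, 0 and 6. With each pair of groups fitted alone they were 5, 0 and 15, and with limma voom on the recovered reads 12, 0 and 15. With each library left out in turn they ranged from 1 to 10, 0 to 2 and 5 to 17. Library totals in place of scaling gave 7, 0 and 9, with mt-Atp6 passing as higher with null virus. Replicate numbers did not pair the libraries (correlations of deviations between -0.0294 and 0.0603 for equal numbers), and a replicate block gave 10, 0 and 14.

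Over all genes tested, 3132, 64 and 1644 passed. Without a filter 2057, 10 and 891 did, with 2 groups alone 1674, 0 and 3864, with library totals 2428, 31 and 921, with voom 3554, 179 and 2292, and with the replicate block 2781, 0 and 1281.

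The nuclear genes of mitochondrial gene expression that passed numbered 21, 0 and 12 in the same order. With 2 groups alone they were 10, 0 and 24. For USP28 virus against null virus, median of ratios, scaling over nuclear genes, a minimum of 1 RPKM and a pseudocount of 1 gave 1 each, and voom gave 2. Leaving out libraries gave 8 to 28, 0 to 5 and 2 to 28.

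The difference in the share of all mitochondrial genes turned from -1.73 to 0.595 percentage points (null virus against control), from 0.623 to -0.508 (USP28 virus against null virus) and from -1.10 to 0.0869 (USP28 virus against control) when copies were counted as mitochondrial, because the copies' own shares are then added. With libraries left out these differences ranged from -2.29 to -1.42, -0.483 (without USP28-virus replicate 2) to 1.62 and -2.21 to -0.112. The rRNA share ranged from -0.0189 to 0.0306 (null virus against control) and the tRNA share from -0.102 to 0.0383 (USP28 virus against null virus). No setting brought 1 of the 22 ratios past the threshold. Of 2220 single-gene values under other settings, 2108 kept their side of the threshold and their called direction, 74 lost and 38 gained significance. In 81 the sign differed while neither value passed. Of 873 values of class shares and ratios, 858 kept their side of the threshold. In the others, the rRNA share (without control replicate 1 or 3) and the tRNA share (without null-virus replicate 1 or 3, or USP28-virus replicate 2) passed over the 3 groups, with exact permutation p between 0.0286 and 0.0429, and 2 of these values also had the other sign. Depth limits mt-Tk and mt-Tf most, at 2 to 8 and 2 to 36 reads.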
